A study of Mus musculus with 8 samples.

Results

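The mouse mitochondrial genome is a small circular DNA that carries its own genes, and all of its genes in the count table were taken by the chromosome given there, MT. They were 37 of the 55487 genes in the table: 2 ribosomal RNA (rRNA) genes, 13 messenger RNA (mRNA) genes and 22 transfer RNA (tRNA) genes. The study compared germ cells sorted from the testis of fetal C57BL/6 mice. Germ cells lacking Rhox10, a homeobox gene of the X chromosome (Rhox10-null;Oct4-eGFP+/+, labelled KO, n = 4 libraries), were set against germ cells of littermates (Oct4-eGFP+/+, labelled WT, n = 4 libraries). All 8 libraries therefore came from mice with the Oct4-eGFP reporter, in which regulatory sequence of Oct4 drives green fluorescent protein in germ cells. Each library was made from 1 ng of total RNA with a stranded total RNA kit for small inputs. The fetal age, the number of mice behind a library and the part of Rhox10 that was deleted are not given in the sources used here. The p-values therefore cover no spread beyond that between these libraries. The spread used for a gene is also drawn partly from all genes tested, so it need not equal the SD printed for that gene.

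The libraries held 16346977 to 20311338 counts, and 15.3 to 16.8% of them lay on the 37 mitochondrial genes. Some reads were counted at more than 1 gene, as described further on. These totals, which the shares of all counts below use, are therefore not numbers of reads. Levels are given as CPM, the counts of a gene relative to the library size after TMM scaling, which corrects for composition. At these totals 1 CPM stood for 16.4 to 20.2 counts. Rhox10 itself had 18, 25, 19 and 17 counts in WT replicates 1 to 4 and 14, 10, 18 and 22 in KO replicates 1 to 4. The Rhox10 groups overlapped (log2 fold change -0.28, adjusted p = 0.767, edgeR), so these counts do not separate the labels, and directions below are those of the labels. The germ cell markers were present in every library, with a summed level of 59.96 to 66.8 CPM per kilobase under the WT label and 61.5 to 67.2 under the KO label. The germ cell sum overlapped while single markers went both ways: of 9 tested, 2 were called higher and 2 lower (edgeR). Markers of other cells were present too, and those of Leydig, Sertoli and erythroid cells summed higher than the germ cell markers in every library. Many differed with the label, while 5.14% of all genes tested were called (edgeR). Called lower were 5 of 6 Leydig, 6 of 9 erythroid, 3 of 8 tested striated muscle and 2 of 8 Sertoli markers. Called higher were 10 of 10 duct and tubule epithelium and 2 of 6 endothelial markers. Leydig cell markers summed to 992 to 999 (WT) and 903 to 919 (KO) CPM per kilobase, Sertoli cell markers to 262 to 273 and 244 to 258, and erythroid markers to 276 to 295 and 101 to 108. Duct and tubule epithelium markers summed to 17.1 to 19.3 and 34.1 to 38.6 CPM per kilobase, and no marker of any list was at 0 in all libraries. Endothelial markers summed to 30.8 to 33.8 and 34.5 to 35.4 CPM per kilobase, macrophage markers to 11.9 to 12.6 and 8.83 to 10.9, and striated muscle markers to 9.10 to 10.1 and 6.84 to 8.20. Their part in the results below was not tested, and in bulk samples fewer cells of a type and less RNA per cell cannot be told apart.

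As background, mitochondrial DNA is transcribed from both strands into long polycistronic RNAs that cover nearly the whole circle. The rRNAs and mRNAs are separated from one another mainly by cutting out the tRNAs that lie between them, the tRNA punctuation model. The rRNAs build the mitochondrial ribosome, the mRNAs encode core subunits of respiratory chain complexes I, III and IV and of the ATP synthase (complex V), and the tRNAs serve translation inside the organelle. Fetal germ cells, like other cells, need these genes for oxidative phosphorylation, and most other mitochondrial proteins come from nuclear genes.

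The tight packing that the counts have to resolve is shown by 3 stretches of the genome (GENCODE M21 transcripts, build GRCm38, each 5′ to 3′ on the gene's own strand). The first, MT:995-1123 on the forward strand, holds the end of mt-Rnr1, all of mt-Tv in capitals and the start of mt-Rnr2, with no base between the genes. The second, MT:14041-14139 on the reverse strand, holds mt-Te in capitals, directly followed by the start of mt-Nd6. The third, MT:7897-7999 on the forward strand, holds in capitals the 43 bases that mt-Atp8 and mt-Atp6 share.
mt-Rnr1, mt-Tv and mt-Rnr2: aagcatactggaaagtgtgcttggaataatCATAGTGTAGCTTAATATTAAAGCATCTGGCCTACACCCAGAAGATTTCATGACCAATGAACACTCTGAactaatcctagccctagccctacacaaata
mt-Te and mt-Nd6: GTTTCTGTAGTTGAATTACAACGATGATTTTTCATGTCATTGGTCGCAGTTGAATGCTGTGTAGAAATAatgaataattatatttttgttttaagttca
mt-Atp8 and mt-Atp6: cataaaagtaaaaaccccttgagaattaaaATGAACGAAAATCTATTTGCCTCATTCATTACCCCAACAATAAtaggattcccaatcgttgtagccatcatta

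Among the 37 genes, 1 passed the test between the labels: mt-Rnr2, the 16S rRNA of the large mitochondrial ribosomal subunit, rose by 5.86% in the libraries labelled KO. The filter on low counts left 21 of the 37 genes to test, namely both rRNAs, all 13 mRNAs and 6 of the 22 tRNAs. By edgeR's quasi-likelihood test with Benjamini-Hochberg adjustment over 23190 genes, 1 of the 21 was called higher and 0 were called lower. Of all genes tested 5.14% were called (2.35% higher, 2.80% lower), so by this test 1 of 21 is near the background. At an unadjusted p under 0.05 there were 8 of the 21 genes, against 3618 of all 23190. DESeq2 also called 1 mitochondrial gene higher and 0 lower, against 3.39% of all genes. Limma voom, run with a weight estimated for each library, called 4 higher and 1 lower of the 21, against 3.63% of all genes. EdgeR with no robust estimation called 4 higher and 0 lower, against 4.60% of all genes. How far the mitochondrial genes stand above the background thus depends on the test and its settings. The other genes were mostly held to narrow limits, as the plot of fold changes shows for each.

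**Figure D1:**
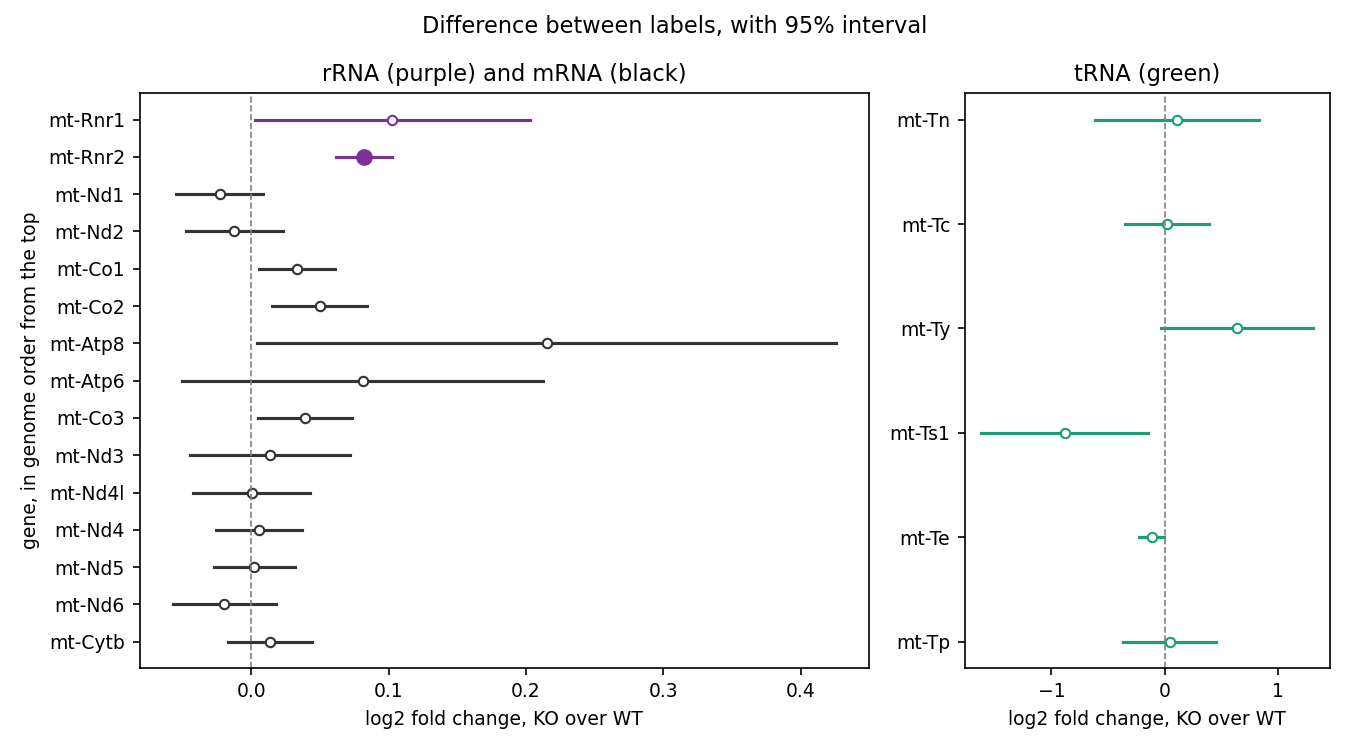
Difference between the labels for the 21 mitochondrial genes tested, as log2 fold change of KO over WT (x axis) with 95% intervals, n = 4 libraries per label, in genome order from the top; a filled point marks an adjusted p under 0.05. Only mt-Rnr2 is filled, the mRNAs other than mt-Atp8 and mt-Atp6 lie close to 0, and the 6 tRNAs have wider intervals on their wider axis.

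Both rRNA genes lie at the start of the forward transcript, mt-Rnr1 (12S rRNA of the small ribosomal subunit) at MT:70-1024 and mt-Rnr2 at MT:1094-2675. The level of mt-Rnr2 in WT replicates 1 to 4 was 91450, 94179, 93150 and 93108 CPM, and in KO replicates 1 to 4 it was 101171, 98689, 96660 and 97153 CPM. Every KO library stood above every WT library. The means were 92972 ± 1129 and 98418 ± 2029 CPM (SD, n = 4), a log2 fold change of 0.08 with a standard error of 0.0105 and an adjusted p of 1.04e-10 by edgeR. The 95% interval of the difference ran from 4.35 to 7.39%. This interval and the p rest on a spread drawn partly from all genes tested. They can therefore be tighter than the 4 values per label alone would give. No other mitochondrial gene had groups that did not overlap, whereas 9.44% of all genes tested did.

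The level of mt-Rnr1 in WT replicates 1 to 4 was 28599, 29109, 29404 and 30510 CPM, and in KO replicates 1 to 4 it was 34048, 30764, 30413 and 31081 CPM. KO replicate 1 stood apart on the high side, and the groups overlapped only in that WT replicate 4 lay just above KO replicate 3. The log2 fold change of mt-Rnr1 was 0.10 with a standard error of 0.0413, and it was not called (adjusted p = 0.306, edgeR). Without KO replicate 1 the difference was smaller, 0.06 on the log2 scale, and passed the test (adjusted p = 6.29e-06). Without that library mt-Rnr2 was still higher, by 0.07 on the log2 scale (adjusted p = 7.3e-10). Limma voom and the fit with no robust estimation also called mt-Rnr1 higher (adjusted p = 0.00121 and 2.5e-05).

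The balance between the rRNAs did not separate the labels. Counts of mt-Rnr2 were 3.05 to 3.24 times those of mt-Rnr1 in the WT libraries and 2.97 to 3.21 times in the KO libraries. The mean log2 ratio differed by -0.02 between the labels (p = 0.571, exact two-sided permutation test over all 70 splits, smallest possible p 0.0286). The library kit removes cDNA of ribosomal RNA with probes, so these counts are what that step left, and how much of each mitochondrial rRNA it took was not tested. A locus that overlaps nuclear ribosomal DNA, CT010467.1 on chromosome 17 (39846353 to 39848201, GRCm38), gave 3140, 4044, 3707 and 3610 CPM in WT replicates 1 to 4. In KO replicates 1 to 4 CT010467.1 gave 3530, 3418, 3500 and 3504 CPM, within the WT range (log2 fold change -0.06, adjusted p = 0.820, edgeR). Gm15564, a further locus of nuclear ribosomal RNA sequence, had a log2 fold change of -0.05 (adjusted p = 0.908).

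**Figure D2:**
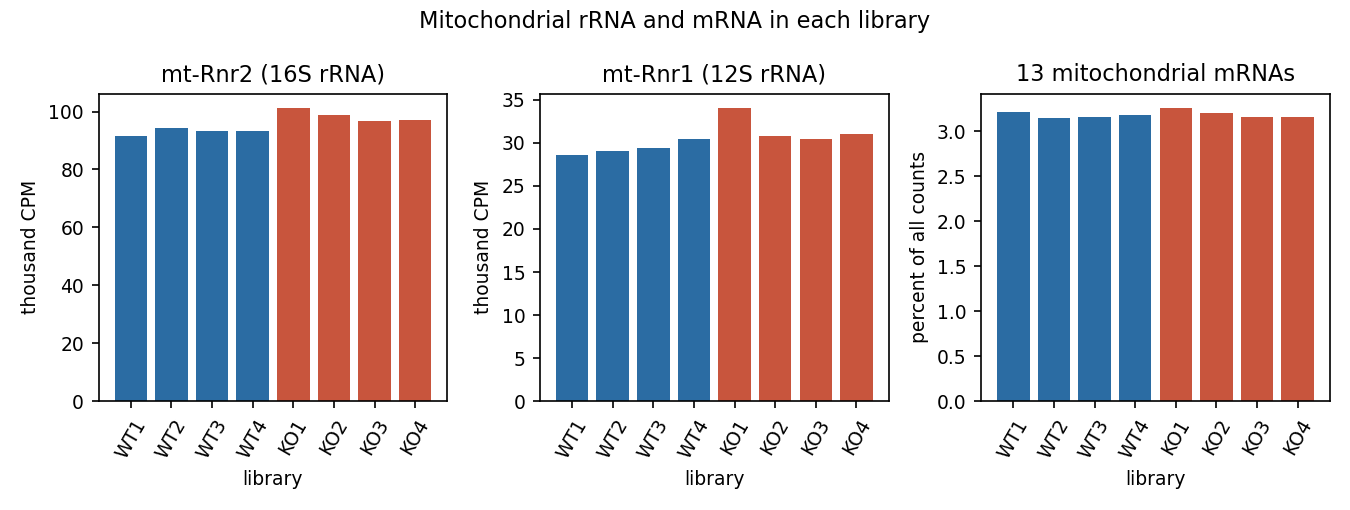
Level of mt-Rnr2 and mt-Rnr1 in CPM (axis in units of 1000 CPM), and share of all counts on the 13 mitochondrial mRNAs in percent, 1 bar per library (blue WT, red KO). For mt-Rnr2 the lowest KO bar is above the highest WT bar; for mt-Rnr1 KO replicate 1 stands above the rest; the mRNA shares of both labels overlap between 3.15 and 3.26%.

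The mRNA genes spanned a wide range per unit length, on the scale of CPM per kilobase of gene (mean ± SD over the 4 WT libraries). The rRNAs came first, with 58768 ± 714 CPM per kilobase for mt-Rnr2 and 30791 ± 846 for mt-Rnr1. The mRNA with the highest level was mt-Atp6 at 6938 ± 270, followed by mt-Co1 at 5022 ± 46.8. Next came mt-Cytb at 2900 ± 31.6 and mt-Co2 at 2834 ± 57.0 CPM per kilobase, which were not separated (mt-Cytb was above in 5 of 8 libraries). Below them were mt-Nd1 (2618 ± 17.2), mt-Nd5 (2444 ± 18.9) and, again not separated from each other, mt-Co3 (1903 ± 18.6) and mt-Nd4 (1892 ± 20.2), with mt-Co3 above in 6 of 8 libraries. The lower end held mt-Nd6 (1676 ± 30.5), mt-Nd4l (1499 ± 25.1), mt-Nd2 (1143 ± 21.7), mt-Atp8 (973 ± 98.5) and mt-Nd3 (443 ± 21.1). Of these only mt-Nd2 and mt-Atp8 had overlapping ranges, with mt-Nd2 above in 7 of 8 libraries. The KO libraries gave the same order of means except that mt-Co2 (2933 ± 108) stood just above mt-Cytb (2928 ± 78.6).

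Genes cut from the same transcript thus differed widely in counts per kilobase. The forward-strand mRNAs mt-Atp6 and mt-Nd3 lie less than a kilobase apart, yet mt-Atp6 had 6938 and mt-Nd3 443 CPM per kilobase in the WT libraries. The genes also differ in length (681 and 348 bases), and the part of length and of neighbouring tRNA genes in such values was not tested. The values for mt-Atp8, mt-Atp6, mt-Nd4l and mt-Nd4 also depend on how the authors' counting treated reads in the bases that neighbours share, which is not stated. Sharing with nuclear copies, described further on, touches several of them.

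**Figure D3:**
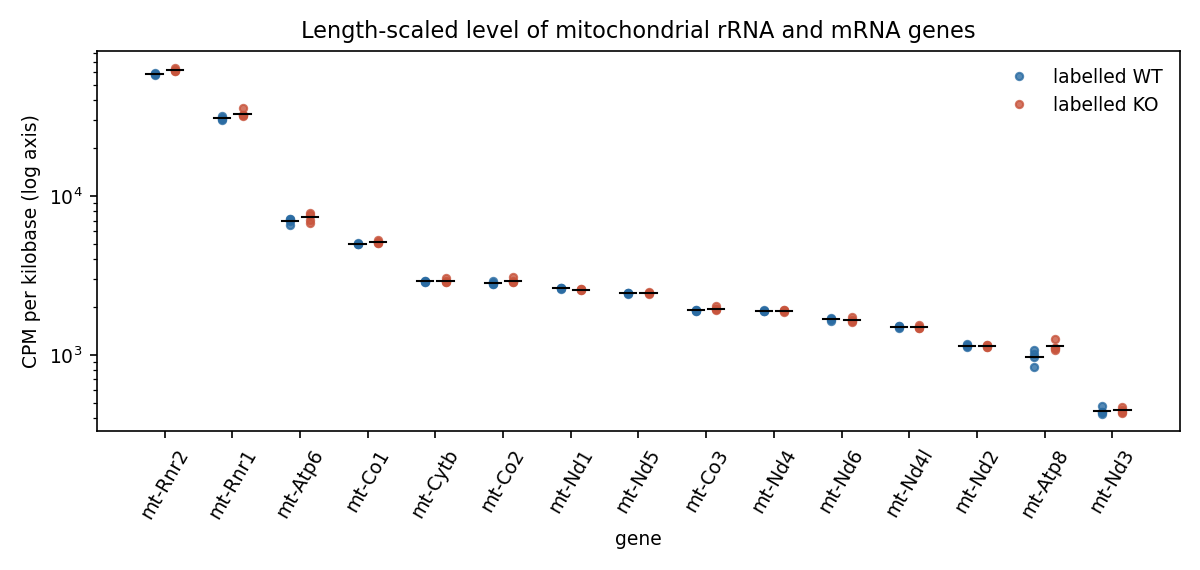
Level of the rRNA and mRNA genes in CPM per kilobase of gene (log axis), ordered by the WT mean; points are libraries (blue WT, red KO) and bars are group means. The spread between genes, from 443 to 58768 CPM per kilobase in the WT means, is far wider than the distance between the labels at any gene.

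The 7 mRNAs of complex I, the NADH dehydrogenase that feeds electrons into the respiratory chain, gave no call. Their 95% intervals were narrow, with the outermost bounds at -3.88% (mt-Nd6) and 5.14% (mt-Nd3). The log2 fold changes were -0.02 for mt-Nd1 (adjusted p = 0.538), -0.01 for mt-Nd2 (0.831), 0.01 for mt-Nd3 (0.892) and 0.01 for mt-Nd4 (0.923). They were 0.0003 for mt-Nd4l (adjusted p = 0.997), 0.002 for mt-Nd5 (0.966) and -0.02 for mt-Nd6 (0.711), all by edgeR. No complex I mRNA had an unadjusted p under 0.05. The one mRNA read from the reverse strand, mt-Nd6, had 873, 884, 847 and 876 CPM in the WT libraries and 893, 865, 832 and 843 CPM in the KO libraries. It thus stayed within the same narrow band under both labels, its highest value being KO replicate 1.

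Complex III has a single mitochondrial subunit, cytochrome b, encoded by mt-Cytb. Its log2 fold change was 0.01 with a 95% interval of -1.18 to 3.13% (adjusted p = 0.765, edgeR).

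The 3 mRNAs of complex IV, the cytochrome c oxidase that passes electrons to oxygen, had values slightly above 0 with no call. The level of mt-Co1 was 7866, 7711, 7728 and 7729 CPM in WT replicates 1 to 4 and 8163, 7927, 7820.2 and 7851 CPM in KO replicates 1 to 4. Only WT replicate 1 overlapped the KO libraries, where KO replicate 1 was highest. The difference was 2.34% with a 95% interval of 0.416 to 4.31% (adjusted p = 0.175, edgeR). For mt-Co2 the libraries gave 1912, 1921, 1923 and 1996 CPM (WT) and 2115, 1959, 1961 and 1990.3 CPM (KO), so that WT replicate 4 lay among the KO libraries. Its difference was 3.51% with an interval of 1.08 to 6.00% (adjusted p = 0.0763, edgeR). For mt-Co3 the difference was 2.75% with an interval of 0.345 to 5.21% (adjusted p = 0.219, edgeR). Leaving out a single library passed the test for mt-Co2, without WT replicate 4 (log2 fold change 0.06, adjusted p = 0.0194) or without KO replicate 2 (0.06, adjusted p = 0.0376). Without KO replicate 1, by contrast, the log2 fold change of mt-Co2 was 0.02 (adjusted p = 0.550), and over all alternatives its adjusted p ran from 0.0194 to 0.619.

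The ATP synthase mRNAs, mt-Atp8 and mt-Atp6, share the overlap printed above and had the largest standard errors of the log2 fold change among the mRNAs. The level of mt-Atp8 was 172, 219, 197 and 207 CPM in WT replicates 1 to 4 and 255, 225, 217 and 226 CPM in KO replicates 1 to 4. The groups touched only at WT replicate 2 and KO replicate 3, and the log2 fold change of 0.22 had a standard error of 0.0872 and an adjusted p of 0.310 by edgeR. The 95% interval of mt-Atp8 ran from 0.318 to 34.3%. For mt-Atp6 the libraries gave 4746, 4849, 4846 and 4459 CPM (WT) and 4626, 5358, 5183 and 4827 CPM (KO). Here KO replicate 1 was not the highest but the lowest of its group, and the difference of 5.78% had an interval of -3.42 to 15.9% (adjusted p = 0.580, edgeR). The ratio of mt-Atp6 to mt-Atp8 counts was 21.5 to 27.7 in the WT libraries and 18.1 to 23.8 in the KO libraries.

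Of the 13 mRNAs as a whole, 0 were called by edgeR or DESeq2 and 4 had an unadjusted p under 0.05 by either tool, while limma voom called mt-Co1 and mt-Atp8 higher and mt-Nd1 lower. The median log2 fold change of the 13 mRNAs was 0.01, beside 0.002 over all genes tested. It was -0.01 when the libraries were scaled to the summed mitochondrial mRNA counts, and -0.003 with library totals alone.

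The tRNA genes, 59 to 75 bases long, gave few counts, and nearly all of these lay on the reverse strand. The 8 reverse-strand tRNA genes had 6127 counts over all 8 libraries and the 14 forward-strand ones 230. A single gene, mt-Te (tRNA for glutamate), held 4973 of the 6127. Without it the other reverse-strand genes still had 1154 counts. In every library the reverse strand held 95.4 to 97.5% of the tRNA counts. The forward-strand tRNAs, among them mt-Tv between the rRNAs, had 0 to 9 counts per library each, with a median of 14 counts per gene over all libraries. None of the 14 passed the filter on low counts. In the edgeR fit with no filter, which called 2.12% of all genes, 0 of the 14 were called and 0 had an unadjusted p under 0.05 (smallest adjusted p = 0.553), and the same counts of 0 held for mt-Tq and mt-Ta, the reverse-strand tRNAs outside the main fit. The forward-strand gene with the most counts was mt-Tg (tRNA for glycine), with 47, and those with the fewest were mt-Tf, mt-Tr and mt-Ts2 (tRNAs for phenylalanine, arginine and serine), with 2 each.

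The distance to the nearest gene on the same strand differed between the strands for some of the tRNAs. Every forward-strand tRNA lies within 1 base of another gene on its own strand. Among the reverse-strand tRNAs mt-Tq, mt-Ts1 and mt-Tp lie 1175, 1543 and 1216 bases from the nearest gene on their strand. The others, mt-Ta, mt-Tn, mt-Tc, mt-Ty and mt-Te, lie within 2 bases of one. With both strands considered, the largest gap was 1 base for forward-strand and 2 bases for reverse-strand tRNAs. Counts did not simply follow the same-strand distance: mt-Tq had 17, mt-Ts1 108 and mt-Tp 326 counts in all. The gene mt-Te, which abuts mt-Nd6 as printed above, had 4973. Whether these counts come from mature tRNAs or from longer precursors was not tested, and how reads spanning neighbouring genes were counted is not stated.

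**Figure D4:**
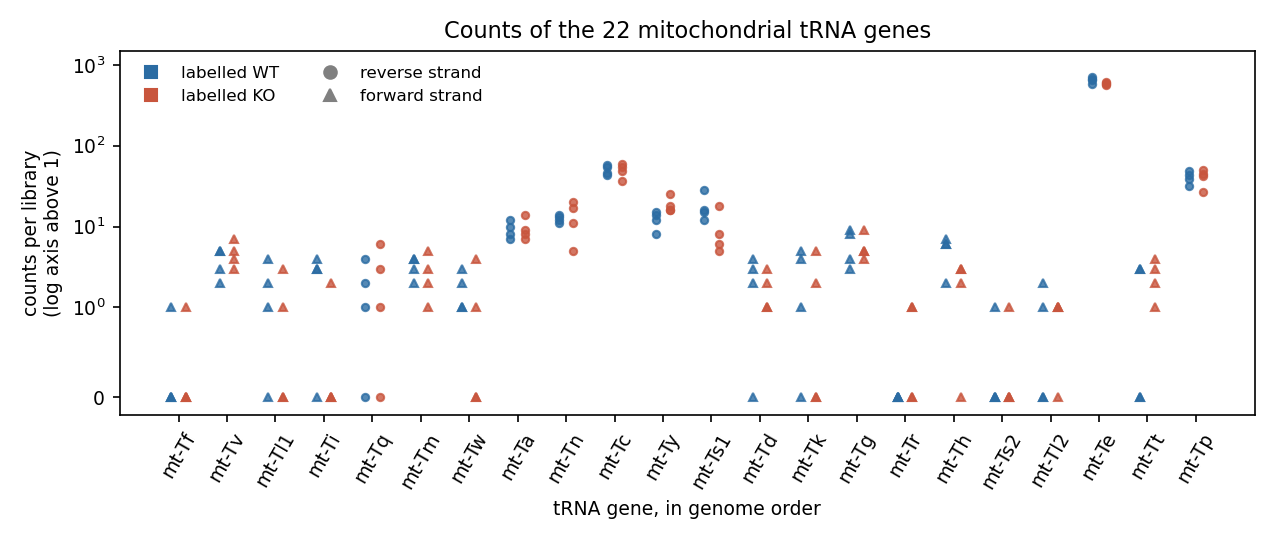
Counts per library of the 22 mitochondrial tRNA genes in genome order (y axis linear from 0 to 1 and logarithmic above), blue WT and red KO, circles for reverse-strand and triangles for forward-strand genes. All triangles lie at 9 counts or fewer, and mt-Te, at 567 to 702 counts, is far above every other tRNA.

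Of the 6 tRNAs tested, all on the reverse strand, 0 were called by edgeR, DESeq2 or limma voom, and 2 had an unadjusted p under 0.05 by edgeR. The counts of mt-Te were 589, 702, 643 and 677 in WT replicates 1 to 4 and 591, 567, 588 and 616 in KO replicates 1 to 4. As CPM its groups overlapped, with means of 35.8 ± 2.33 and 33.1 ± 2.39 (SD, n = 4) and a log2 fold change of -0.11 (adjusted p = 0.299, edgeR). For mt-Ts1 (tRNA for serine) the counts were 12, 16, 28 and 15 (WT) and 18, 8, 5 and 6 (KO), with KO replicate 1 above all WT libraries but one. The log2 fold change of mt-Ts1 was -0.88 (adjusted p = 0.183, edgeR), and without KO replicate 1 it was -1.47 and passed the test (adjusted p = 0.0280). For mt-Ty (tRNA for tyrosine) the counts were 8, 12, 14 and 15 (WT) and 18, 16, 16 and 25 (KO), a log2 fold change of 0.64 (adjusted p = 0.362). The other tested tRNAs, mt-Tn, mt-Tc and mt-Tp (for asparagine, cysteine and proline), had log2 fold changes of 0.11, 0.02 and 0.04 with adjusted p of 0.933, 0.980 and 0.959.

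Set out by class, the rRNAs took 12.10, 12.25, 12.25 and 12.51% of all counts in WT replicates 1 to 4 and 13.53, 12.75, 12.55 and 12.74% in KO replicates 1 to 4. No KO library was below the highest WT library, and the means differed by 0.613 percentage points (12.3 ± 0.173 and 12.9 ± 0.435%, SD, n = 4). Without KO replicate 1 the difference was 0.401 percentage points. The mRNAs took 3.15 to 3.21% (WT) and 3.16 to 3.26% (KO), which overlapped. The tRNAs took 0.00439 to 0.00502% and 0.00396 to 0.00462%, which overlapped as well. Within the mitochondrial counts alone, the rRNA part was 79.0 to 79.7% (WT) and 79.8 to 80.6% (KO), and the mRNA part 20.3 to 20.97% and 19.4 to 20.1%, with no overlap in either case. The tRNA part of the mitochondrial counts was 0.0285 to 0.0320% (WT) and 0.0252 to 0.0275% (KO), with no overlap either. As these are shares of 1 whole, a higher rRNA part lowers the others, and they are not separate observations.

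Among the mRNAs, the share of complex I separated the labels by a small step. Complex I took 38.4 to 38.8% of the mitochondrial mRNA counts in the WT libraries and 37.7 to 37.9% in the KO libraries, with no overlap, while the parts of complexes III, IV and V overlapped. The part of complex V was 14.8 to 15.98% (WT) and 14.99 to 17.2% (KO). As these too are shares of 1 whole, higher parts of other mRNAs lower the part of complex I. KO minus WT, the mean parts differed by 0.667 (complex V), 0.258 (complex IV) and -0.0927 (complex III) percentage points. On the CPM scale the 7 complex I genes had a median log2 fold change of 0.0003. Of the 13 genes, mt-Nd1 (7.89 to 7.94% and 7.62 to 7.69%) and mt-Nd5 (13.97 to 14.16% and 13.76 to 13.95%) had shares of the mitochondrial mRNA that did not overlap. Relative to the same total, 9.91% of all genes tested had groups that did not overlap. With library size set to the mitochondrial mRNA total, edgeR called 5.65% of all genes. Among the mitochondrial genes it then called mt-Rnr2 higher (log2 fold change 0.06, adjusted p = 0.000416) and 0 lower, with 5 genes at an unadjusted p under 0.05. On that scale mt-Nd1 was at -0.05 (adjusted p = 0.0838) and mt-Nd5 at -0.02 (adjusted p = 0.525). No alternative test was run on that scale.

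KO replicate 1 was the highest of all 8 libraries in 10 of the 15 rRNA and mRNA genes: mt-Rnr1, mt-Rnr2, mt-Co1, mt-Co2, mt-Co3, mt-Atp8, mt-Cytb, mt-Nd4, mt-Nd5 and mt-Nd6. It was not the highest in mt-Nd1, mt-Nd2, mt-Nd3, mt-Nd4l or mt-Atp6. Its share of mitochondrial counts was also the highest, 16.8% against 15.7 to 15.96% in the other KO libraries.

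Many mitochondrial reads fit nuclear DNA as well, because stretches of mitochondrial DNA have been copied into the chromosomes during evolution. Aligning the M21 transcripts to those of the mitochondrial genes (identity of at least 95% over at least 100 bases) found 11 nuclear pseudogenes that copy 9 of the mitochondrial genes. A block of 7 of them lies on chromosome 1 (24611535 to 24616197, GRCm38), 3 lie on chromosome 2 (22587291 to 22590533), and Gm4076 lies on chromosome 13. To show how close such copies are, bases 441 to 560 of mt-Co2 are printed beside its copies Gm28661 and Gm13341, from mt-Co2 at MT:7453-7572 on the forward strand, chr1:24615006-24615125 on the reverse strand and chr2:22587415-22587534 on the reverse strand. This stretch of 120 bases was chosen for its differences between mt-Co2 and Gm13341, among windows compared without gaps at spaced positions. The alignment of the whole gene to Gm13341 also holds 12 gap bases, so other stretches can differ more. Capitals mark each base that differs from mt-Co2.
mt-Co2: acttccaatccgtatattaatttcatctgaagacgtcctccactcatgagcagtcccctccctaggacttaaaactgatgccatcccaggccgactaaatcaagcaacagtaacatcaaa
Gm28661: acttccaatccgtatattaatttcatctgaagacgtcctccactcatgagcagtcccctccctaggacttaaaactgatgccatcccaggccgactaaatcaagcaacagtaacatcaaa
Gm13341: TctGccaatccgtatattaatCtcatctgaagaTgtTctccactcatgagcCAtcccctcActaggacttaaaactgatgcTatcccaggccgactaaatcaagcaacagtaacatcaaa

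Gm28661 had 0 differences and Gm13341 had 9 in this stretch, and their counts differed in the same order. Over all libraries mt-Co2 had 285160 counts, Gm28661 285738 (100.2% of mt-Co2) and Gm13341 67100 (23.5%). Reads that match both mt-Co2 and Gm28661 were thus counted at both places, and their origin cannot be told apart. The same held for the other full-length copies of the chromosome 1 block. Gm28437 had 100.2% of the counts of mt-Co3, Gm10222 100.4% of those of mt-Nd4l and Gm28438 100.8% of those of mt-Nd3. Gm10925 had more counts than the gene it copies, 758595 against 704074 (107.7% of mt-Atp6). The gene mt-Atp8, which overlaps mt-Atp6, had 31077 counts in all. Whether reads in the bases that these 2 genes share were left out at both was not tested, so the level of mt-Atp8 may rest on a part of its reads. The 2 partial copies of that block had 47.2% of the counts of mt-Nd4 (Gm28439, covering 63.6% of the gene) and 39.3% of those of mt-Co1 (Gm29216, covering 31.3%).

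The 4 copies of under 99% identity had fewer counts relative to their source, though not in the order of their identity. Besides Gm13341 (95.9% identity, 23.5%), Gm13340 (97.6% identity) had 17.9% of the counts of mt-Co1, Gm13339 (96.7%) 14.1% of those of mt-Nd2 and Gm4076 (95.2%) 1.60% of those of mt-Nd5. No copy passing these limits was found for mt-Rnr1, mt-Rnr2, mt-Nd1, mt-Nd6, mt-Cytb, mt-Atp8 or any tRNA, which says only that none of the annotated transcripts searched aligned. For mt-Rnr2, the gene that rose, the count is therefore not doubled at any of the copies found.

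**Figure D5:**
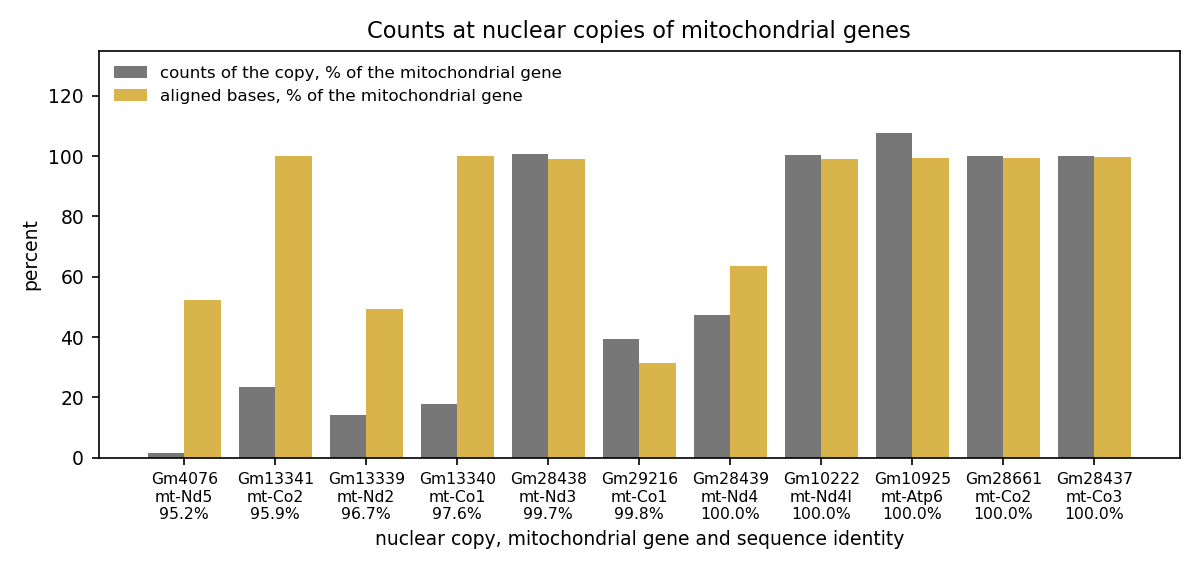
Summed counts of each nuclear copy as percent of those of the mitochondrial gene it copies (grey) and aligned bases as percent of that gene's length (yellow), ordered by sequence identity from 95.2% at the left. The 5 copies with full-length matches of 99% identity or more have about as many counts as their source or, for Gm10925, more, and the 4 copies of lower identity have 1.60 to 23.5%.

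Together the 11 copies took 1.54 to 1.56% of all counts in the WT libraries and 1.57 to 1.61% in the KO libraries, with no overlap. Of the 11 copies 0 were called by edgeR or DESeq2, with 4 at an unadjusted p under 0.05 by each, and limma voom called Gm13340 higher. The identical copies Gm28661 and Gm10925 had the values of their sources. Gm28661 had a log2 fold change of 0.05 (adjusted p = 0.0847, edgeR) and mt-Co2 0.05, Gm10925 had 0.08 (adjusted p = 0.527) and mt-Atp6 0.08. Since the reads of identical copies are shared, this is no second measurement. Of the copies under 99% identity, Gm13341 (0.07) and Gm13340 (0.04) had the sign of mt-Co2 and mt-Co1. Gm13339 (0.04) and Gm4076 (-0.04) had the opposite sign to mt-Nd2 (-0.01) and mt-Nd5 (0.002).

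Nuclear genes that copy, transcribe, process and translate the mitochondrial genome were counted in 7 lists. Among the 161 genes tested in them 2 were called (1.24%, below the 5.14% of all genes), Polg2 and Lrpprc, both lower in the libraries labelled KO. The other 5 lists had no call by edgeR, DESeq2 or limma voom. For the counts below, the background at an unadjusted p under 0.05 was 3618 of all 23190 genes tested (edgeR).

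Polg2 encodes the accessory subunit of mitochondrial DNA polymerase gamma, which holds the polymerase on its template. Its level was 46.3, 49.6, 48.2 and 50.7 CPM in WT replicates 1 to 4 and 34.7, 41.4, 40.1 and 37.002 CPM in KO replicates 1 to 4. Every KO library lay below every WT library, with means of 48.7 ± 1.86 and 38.3 ± 3.03 CPM (SD, n = 4). On the log2 scale Polg2 fell by 0.35 (standard error 0.0510, edgeR adjusted p = 1.32e-08), and the 95% interval of the difference ran from -26.7 to -15.7%. It was the 1 gene called among 15 of the replication and nucleotide supply list, whose median log2 fold change was 0.03.

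Lrpprc encodes a protein that binds and stabilises mitochondrial mRNAs. Its level was 102.3, 98.2, 101.5 and 98.0 CPM in WT replicates 1 to 4 and 90.1, 92.9, 88.3 and 94.5 CPM in KO replicates 1 to 4, with no overlap. On the log2 scale Lrpprc fell by 0.13 (standard error 0.0351, edgeR adjusted p = 0.0107), and without KO replicate 3 the value was -0.11 and no longer passed the test (adjusted p = 0.0798). It was the 1 gene called among 17 tested of the 18 in the list of mRNA stability, polyadenylation and decay. Slirp, its binding partner, had 11 counts in all and was not tested.

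The transcription list had 0 of 11 genes called and 1 at an unadjusted p under 0.05, Tfam, with a median log2 fold change of -0.09 over the list. Tfam, which packages mitochondrial DNA and opens its promoters, had 23.4, 24.5, 22.1 and 22.3 CPM (WT) and 20.2, 19.96, 20.5 and 19.5 CPM (KO). The groups did not overlap, but the log2 fold change of -0.20 was not called (adjusted p = 0.0647, edgeR). In the list of tRNA excision and maturation 0 of 16 genes were called and 1 had an unadjusted p under 0.05, Cdk5rap1, a tRNA-modifying enzyme (log2 fold change 0.23, adjusted p = 0.210). Of the 17 genes for rRNA modification and ribosome assembly 0 were called, with 2 at an unadjusted p under 0.05. The smallest p of that list belonged to Trub2, a pseudouridine synthase (log2 fold change 0.13, adjusted p = 0.259). Of the 9 regulators of mitochondrial biogenesis 0 were called and 2 had an unadjusted p under 0.05, with the smallest p at the coactivator Ppargc1b (log2 fold change 0.30, adjusted p = 0.183).

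The proteins of the mitochondrial ribosome, partners of the rRNAs, formed the longest list, with 77 of 78 genes tested. By edgeR 0 were called and 11 had an unadjusted p under 0.05, beside 3618 of all 23190 genes tested. A log2 fold change below 0 was found in 54, beside 11436 of all genes tested. The median was -0.06 beside 0.002 over all genes tested. The smallest p was that of Mrps26, a protein of the small subunit (17.8, 16.2, 17.6 and 16.2 CPM in the WT libraries, 13.7, 12.3, 15.02 and 15.8 CPM in the KO libraries). The Mrps26 groups did not overlap, and its log2 fold change of -0.25 was not called (adjusted p = 0.0573, edgeR).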

How the data were processed

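Counts of reads per gene were used as deposited by the authors, raw and with no normalization. The submitters' processing notes list, with no roles, featureCounts, Subread, DESeq2, STAR 2.5.2b and the build GRCm38. Settings, the use of strand and the treatment of reads with several positions are not given in the sources used here. All 37 mitochondrial genes had the position of the GENCODE M21 annotation. Of 55487 genes, 55141 got a symbol from it.

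Counts were filtered (filterByExpr defaults), scaled by TMM (trimmed mean of M-values) and tested in R 4.3.3 with edgeR 4.0.16 (robust quasi-likelihood, two-sided, no other term), and calls were made at 0.05 after Benjamini-Hochberg adjustment over 23190 genes. Gene names follow a rule: all 37 genes, every nuclear copy, from each list up to 4 called genes or else the 1 with the smallest p, Rhox10 and loci of nuclear ribosomal DNA. The members and lists were chosen with earlier results of these data known. No genome sequence was used, so nuclear copies came from aligning M21 transcripts with blastn 2.17.0. Alternatives were other scalings, filters and tests (DESeq2 1.42.0, limma 3.58.1), the replicate block and leaving out each library. The limma voom fit gave each library its own estimated weight. On simulated counts of 23190 genes for KO against WT the test recovered 20% of 50 genes changed 1.1-fold and 68% at 1.25-fold. It recovered 88% at 1.5-fold and 98% at 2-fold, and 8.05% of its calls were false. The changed genes were drawn only from genes above a minimum mean level, and most of the tested tRNAs lay below it. As averages over genes of many levels, these rates do not give the recovery for a single mitochondrial gene. Chi-squared per degree of freedom between libraries of a group was 1.68 to 3.64, above counting noise; repeat libraries from 1 RNA sample would not be told apart by this.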

Additional observations from a re-analysis of the deposited data

Results flagged for a closer look

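In 3 of the 60 groups of 4 libraries examined, 1 library stood apart from the other 3 by Dixon's criterion, which chance reaches in about 5% of groups. The level of mt-Co1 in WT replicate 1 was 7870 CPM, while the other WT libraries lay at 7710 to 7730 CPM. The level of mt-Co2 in WT replicate 4 was 2000 CPM, with the others at 1910 to 1920 CPM. The tRNA genes took 0.00502% of the counts of WT replicate 4 and 0.00439 to 0.00441% of those of the other WT libraries.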

How the results depend on the processing

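mt-Rnr2 was called higher in 19 of 19 alternatives, with log2 fold changes of 0.06 to 0.09 and adjusted p of 7.59e-12 to 0.000416. Against 1 mitochondrial gene called higher, upper-quartile scaling called 2 (mt-Co2 added), and limma voom and the fit with no robust estimation called 4 each; leaving out 1 library gave 1 to 2. Against 0 called lower, limma voom called 1 (mt-Nd1), and leaving out 1 library gave 0 to 1 (mt-Ts1). DESeq2 called 785 of all genes against 1193. Relative to the TMM effective size the mRNA share differed by 0.0587 percentage points against 0.0211. Leaving out 1 library moved the log2 difference in the ratio of mt-Rnr2 to mt-Rnr1 between -0.0368 and 0.00369. Of 396 values of mitochondrial genes under alternatives, 351 kept direction and side of the threshold, 33 of genes not called changed sign, 12 passed the threshold, and 0 calls were lost or turned. Of all called genes 45.6% were higher, 33.8% with library totals and 28.2% with scaling to mitochondrial mRNA. With the replicate number as a block, 1 mitochondrial gene was called higher, 0 lower and 1249 of all genes. Same-numbered libraries correlated by -0.0097 to 0.0215 over all genes tested, and 2 of 4 numbers matched best with their own. Such values cannot decide whether the numbers pair the libraries, since a shared litter or day could leave little trace across all genes. The nuclear gene Lrpprc lost its call without KO replicate 3, Tfam passed the test in 2 of 19 alternatives and Mrps26 in 4. Causes were not tested. Low counts kept 16 of 22 tRNAs out of the main test; with no filter, 0 of these 16 were called.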
